A study of Rattus norvegicus with 8 samples.

Results

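This account concerns the first hour of exposure of RIE-Ras cells to the cytokine TGF-beta-1, transforming growth factor beta 1. RIE cells are cultured epithelial cells of the rat intestine. RIE-Ras cells were derived from them by stable transfection with the plasmid pSV2-H-Ras(12V), which holds human sequences for a constitutively active H-Ras protein. The series has 8 two-channel arrays, and the 4 whose labels name RIE-Ras cells were taken. Each of the 4 set RIE-Ras cells after 1 hr in TGF-beta-1 at 2 ng/ml against control RIE-Ras cells, so H-Ras(12V) was present on both sides of every ratio. The other 4 arrays made the same comparison, at the same dose and time, in parental RIE cells. The labels do not say whether RIE-Ras is 1 clone or a pool, and they number the samples from 1 to 4 without saying whether each was its own culture. The p-values therefore describe variation among samples, which may be technical. Their spread per feature was estimated from all 8 arrays.

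TGF-beta-1 binds a pair of receptor kinases at the cell surface. The type I receptor phosphorylates Smad2 and Smad3, which join Smad4, enter the nucleus and act on target genes with other transcription factors. Among the first targets are genes that restrain the pathway itself, and in normal epithelial cells the response includes growth arrest. Active Ras drives the Raf, MEK and ERK kinase cascade, which has its own feedback genes, such as the Dusp phosphatases and the Sprouty proteins.

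Values are given as the log2 of treated over control signal, less the median of the array. Before this centring the medians of the 4 RIE-Ras arrays lay between 0.20 and 0.41, and without it the mean ratio of the median feature stood at 0.29. The arrays carried 20500 features. Averaging those that share a gene symbol left 17402, and 9652 of these are named genes. The number of arrays limits the precision, and ratios within an array hold no expression level, so the labelled cell type could not be checked by the level of its markers. The RIE-Ras arrays agreed only weakly with each other. Over all features, which are not independent, their pairwise Pearson correlations ran from -0.04 (replicates 1 and 2) to 0.35 (replicates 2 and 3). Replicate 1 stood apart in its share of features below -1, at 8.16% against 0.85% to 2.77% on the others.

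TGF-beta-1 changed 73 features in RIE-Ras cells, 52 higher and 21 lower, which is 0.419% of the 17402 tested (0.299% higher and 0.121% lower). Of these, 32 higher and 15 lower features are named genes. The highest named rise was that of Gadd45b, a stress and growth-arrest gene, and Smad7, the inhibitory Smad, and Tgif1, a homeobox repressor that binds Smads, rose with it. The falls included Dusp6, a phosphatase that inactivates ERK, Plk2, a polo-like kinase, and genes of translation and energy metabolism. All 73 features had 1 sign on the 4 RIE-Ras arrays. For comparison, 14.3% of all features lay above 0 on all 4 arrays and 14.1% below 0. The test was limma's moderated test of the mean of the 4 arrays against 0, fitted with the 4 RIE arrays so that both lines shared 1 estimate of spread per feature, two-sided, with Benjamini-Hochberg adjusted p under 0.05. Adjusted p ran from 0.00954 to 0.0488, so most calls lay close to the threshold. Few calls outlasted the loss of an array: the count was 12 without RIE-Ras replicate 1, 0 without replicate 2, 0 without replicate 3 and 30 without replicate 4, and 4, 15 and none of the 73 were among them without replicate 1, without replicate 4 and without either of the others. No feature passed when the RIE-Ras arrays were fitted alone, and 3175 then had an unadjusted p under 0.05. Leaving out a RIE array, which enters only the shared spread, gave 137, 4, 4 and 6 calls for RIE replicates 1, 2, 3 and 4.

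Gadd45b had log2 ratios of 2.52, 2.35, 1.95 and 2.60 on RIE-Ras replicates 1 to 4. Its mean was 2.36 ± 0.21 (moderated SE, n = 4), a 5.12-fold change with a limma adjusted p of 0.00954. The 4 values lay close together against the size of the rise, and Gadd45b was the named gene called under most alternatives, 13 of 18. Smad7, which TGF-beta induces and which blocks the type I receptor, stood at 1.75, 1.24, 1.25 and 1.32, with a mean of 1.39 ± 0.19 and an adjusted p of 0.0386. Replicate 1 was its highest array, and the other 3 lay within 0.1 of each other. Tgif1 was at 0.99, 0.86, 0.73 and 1.06, with a mean of 0.91 ± 0.10 (adjusted p = 0.0293). It is the smallest of the 3 rises, and it varied little between arrays (SD 0.15).

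The promoters of 2 of these rises, of Neu1, a rise whose arrays did not overlap those of RIE cells, and of both called genes with a part in Ras and ERK output are printed here as the sequences nearest to the response. Each holds 250 bases before to 50 after the gene's start in the RefSeq annotation of assembly GRCr8, 5′ to 3′ on the strand of the gene, with searched motifs in capitals.
Gadd45b (chr7:9430669-9430968, minus strand): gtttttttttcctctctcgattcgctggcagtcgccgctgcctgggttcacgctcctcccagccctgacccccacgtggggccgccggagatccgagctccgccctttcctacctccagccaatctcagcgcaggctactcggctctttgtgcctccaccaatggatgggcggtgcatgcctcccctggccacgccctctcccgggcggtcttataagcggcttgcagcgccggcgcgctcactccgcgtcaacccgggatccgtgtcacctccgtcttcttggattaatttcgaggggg
Smad7 (chr18:71263258-71263557, plus strand): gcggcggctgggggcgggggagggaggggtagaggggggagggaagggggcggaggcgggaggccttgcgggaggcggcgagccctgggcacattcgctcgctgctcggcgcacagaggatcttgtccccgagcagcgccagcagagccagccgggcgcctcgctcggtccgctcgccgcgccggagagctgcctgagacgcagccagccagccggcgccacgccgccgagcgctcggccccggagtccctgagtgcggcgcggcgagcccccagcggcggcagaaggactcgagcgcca
Neu1 (chr20:3906334-3906633, minus strand): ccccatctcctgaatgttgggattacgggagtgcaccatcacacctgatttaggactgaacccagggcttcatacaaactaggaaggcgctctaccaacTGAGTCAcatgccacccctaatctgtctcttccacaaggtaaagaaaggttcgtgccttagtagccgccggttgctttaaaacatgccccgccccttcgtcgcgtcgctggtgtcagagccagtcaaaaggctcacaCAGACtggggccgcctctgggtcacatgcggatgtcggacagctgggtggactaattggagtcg
Plk2 (chr2:43702286-43702585, plus strand): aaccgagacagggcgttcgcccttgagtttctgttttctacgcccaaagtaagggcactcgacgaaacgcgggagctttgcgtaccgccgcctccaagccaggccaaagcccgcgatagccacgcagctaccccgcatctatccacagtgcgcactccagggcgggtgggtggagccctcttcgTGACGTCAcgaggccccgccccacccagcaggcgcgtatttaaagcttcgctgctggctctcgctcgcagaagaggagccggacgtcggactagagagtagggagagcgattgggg
Dusp6 (chr7:35979354-35979653, plus strand): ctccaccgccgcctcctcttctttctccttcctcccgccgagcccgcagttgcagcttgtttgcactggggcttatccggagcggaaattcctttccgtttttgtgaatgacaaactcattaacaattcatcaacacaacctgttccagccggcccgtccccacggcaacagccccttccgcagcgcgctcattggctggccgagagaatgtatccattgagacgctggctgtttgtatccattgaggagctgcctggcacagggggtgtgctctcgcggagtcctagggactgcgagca
The motifs were the Smad palindrome GTCTAGAC, the CAGA box as AGCCAGACA or AGACAGACA, the AP-1 site TGAGTCA, the cAMP response element TGACGTCA, and the short Smad core CAGAC, which lies within both forms of the CAGA box, each on both strands. CAGAC was added after the data were seen. A promoter was listed for 20 of the 32 named rises (23 promoters) and 13 of the 15 named falls (15 promoters). None of these 38 windows held the palindrome or a CAGA box, which occur in 0.197% and 1.17% of all 33469 promoters. The AP-1 site was in 2 of the 23 promoters of risen genes, those of Slc6a5 and Neu1 (8.70%, against 4.63% of all promoters), and in no promoter of a fallen gene. The cAMP response element was in 1 of 23, that of Gnao1, and in 1 of 15, that of Plk2, where it starts 66 bases before the start site (1.83% of all promoters hold it). CAGAC was in 13 of the 23 and 10 of the 15, against 50.1% of all promoters, and of the 5 sequences above only that of Neu1 holds it. These matches are descriptions of letters in short windows and were not tested.

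**Figure D1:**
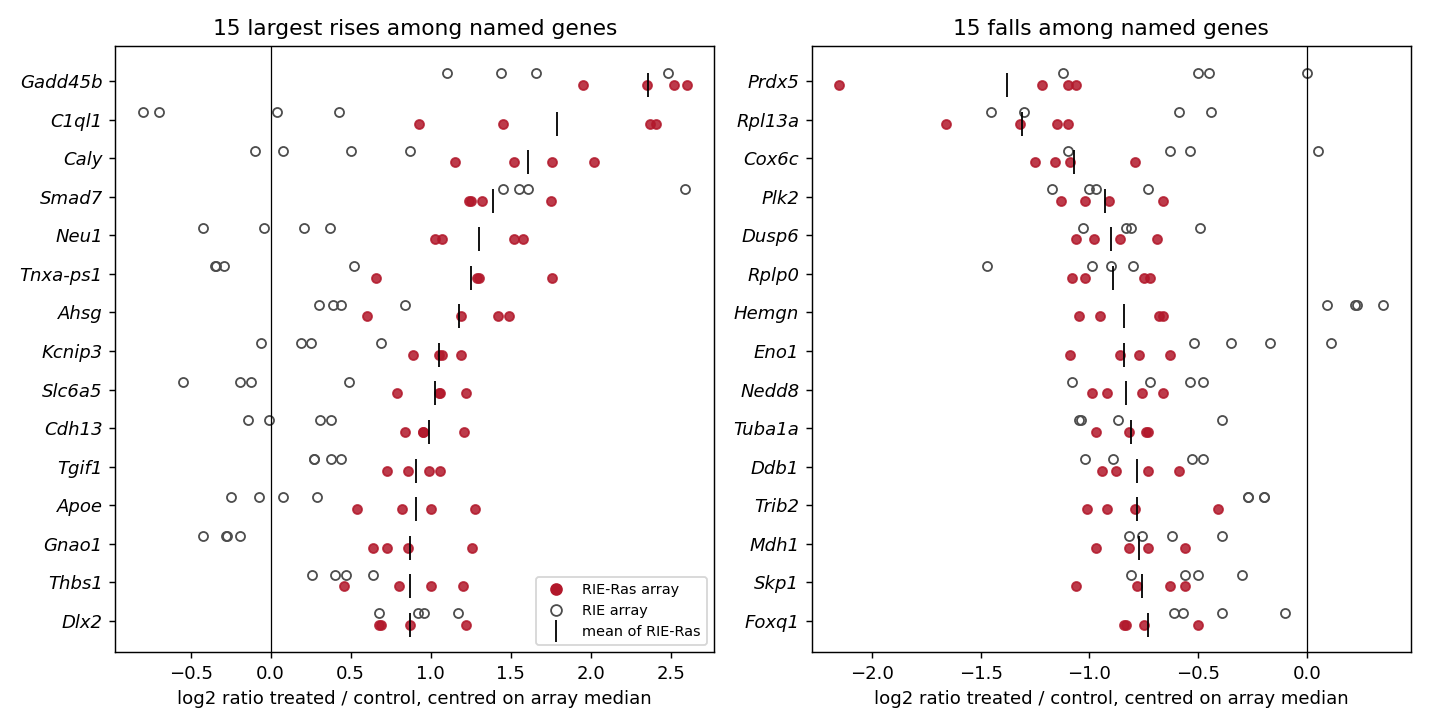
Log2 ratio of treated over control, centred on the array median, for the 15 largest rises (left) and the 15 falls (right) among named genes past the threshold in RIE-Ras cells. Filled points are the 4 RIE-Ras arrays, open points the 4 RIE arrays and the bar the RIE-Ras mean. All RIE-Ras points lie on 1 side of 0, while the RIE points of C1ql1, Neu1 and Slc6a5 lie around 0 and those of Plk2, Dusp6 and Rplp0 overlap the RIE-Ras points.

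Other large rises among named genes are given here by array. C1ql1, a secreted synaptic protein of the C1q family, was at 2.37, 2.41, 1.45 and 0.93 on replicates 1 to 4, a mean of 1.79 ± 0.29. Caly, a vesicle protein of neurons, was at 2.02, 1.76, 1.52 and 1.15, a mean of 1.61 ± 0.19. Replicate 4 was the lowest array for both, and every array of both was above 0.9. Neu1, a lysosomal sialidase, was at 1.07, 1.03, 1.52 and 1.58, a mean of 1.30 ± 0.16. Ahsg, a plasma glycoprotein made by the liver, was at 1.49, 1.42, 1.19 and 0.60, and Tnxa-ps1, a tenascin pseudogene that can share signal with its parent gene, at 1.76, 1.29, 1.30 and 0.66. Neu1 had its 2 higher values on replicates 3 and 4, and the other 2 genes had their lowest on replicate 4. Kcnip3, a calcium-binding protein that regulates potassium channels and transcription, was at 1.07, 1.05, 1.19 and 0.89. Slc6a5, a glycine transporter, was at 1.06, 1.05, 0.79 and 1.22. Cdh13, a cadherin without a cytoplasmic domain, was at 1.21, 0.84, 0.95 and 0.95. These 3 genes varied by at most 0.18 (SD) around means of 1.05, 1.03 and 0.99.

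Several of these genes are best known from brain or liver, so lists of markers of other tissues were read beside them, without the called genes already known from earlier results. Of 20 measured neuronal markers 11 had a positive mean, the list median was 0.09, and none had an unadjusted p under 0.05 in either direction. For 20 liver markers the median was 0.03, with 3 such genes on the higher side and none on the lower, and for 15 muscle markers the median was 0.00 with none. Of 17 erythroid and leukocyte markers 1 had such a p, on the higher side. Over all features 10.9% had an unadjusted p under 0.05 on the higher side and 8.45% on the lower. Intestinal epithelial markers had a median of 0.14 over 18 genes, with 3 on the higher side, among them Epcam, an epithelial adhesion molecule, at 0.47 ± 0.12, and 1 on the lower, the intestinal transcription factor gene Cdx2 at -0.43 ± 0.13; neither passed. Cdh17, an intestinal cadherin, ranged from -0.35 to 1.94. Whether cells of other tissues have a part in these rises was not tested. These lists cannot show it, because ratios hold no expression level and called genes had been left out of them.

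Tent2, a cytoplasmic poly(A) polymerase, was at 0.73, 0.91, 0.76 and 1.06, and its 3 features had means of 1.02, 0.86 and 0.71. It passed with an adjusted p of 0.0359. Kpna4, a nuclear import receptor, was at 0.58, 0.60, 0.59 and 0.66 (SD 0.03), with 3 features at 0.46, 0.69 and 0.66. Apoe, a lipid carrier protein, was at 1.00, 1.28, 0.82 and 0.54. The features of both Tent2 and Kpna4 rose together, whereas the mean of Tg (thyroglobulin, 0.83 ± 0.12) combined features at 1.67 and 0.00. Likewise the 5 features of Arfgef1, an exchange factor for ARF GTPases, ran from 0.08 to 1.26, and the 2 features of Usp53 had means of 1.04 and 0.47. The other named rises were the homeobox gene Dlx2 (0.87), the G protein subunit gene Gnao1 (0.87), Bclaf1 (0.85), the mitochondrial protease gene Yme1l1 (0.84), the zinc finger gene Zfp952 (0.83), the membrane fusion gene Snap23 (0.81), the RNA-binding ubiquitin ligase gene Mex3c (0.76) and the protein kinase gene Pkn2 (0.75). Efna5, a ligand of Eph receptors, Hspbap1, the exocyst gene Exoc5, Dcun1d1, which promotes neddylation of cullins, and the channel gene Hcn3 rose by 0.74, 0.74, 0.66, 0.64 and 0.55.

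Of the 26 unnamed features past the threshold 20 rose and 6 fell. The largest rise of all was on feature 7475, at 2.64, 2.13, 2.25 and 3.30, a mean of 2.58 ± 0.22, ahead of Gadd45b. Feature 18953 stood at 2.59, 2.97, 2.37 and 0.84, and feature 10019 at 2.35, 1.83, 1.78 and 1.95. Both had means between those of Gadd45b and C1ql1. The largest fall on an unnamed feature was on feature 19130, with a mean of -1.28 ± 0.20.

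Among the 15 named falls Prdx5, a mitochondrial and peroxisomal peroxiredoxin, had the largest mean, at -1.10, -1.22, -1.06 and -2.15 on replicates 1 to 4 (mean -1.38 ± 0.22, adjusted p = 0.0478). Replicate 4 lay far below the other 3, which agreed closely. Rpl13a, a protein of the large ribosomal subunit, was at -1.15, -1.66, -1.10 and -1.32, and Cox6c, a subunit of cytochrome c oxidase, at -0.79, -1.25, -1.16 and -1.09. Plk2 was at -0.66, -0.91, -1.02 and -1.13, a mean of -0.93 ± 0.12. Dusp6 was at -0.86, -0.98, -0.69 and -1.06, a mean of -0.90 ± 0.12, and its 2 features had means of -1.05 and -0.75. For all of these every array was below -0.6. Rplp0, of the ribosomal stalk, had a mean of -0.89 from features at -1.30 and -0.49. Hemgn, a nuclear protein of blood progenitors, was at -0.95, -0.66, -0.68 and -1.05. Eno1, a glycolytic enzyme, was at -0.63, -1.09, -0.77 and -0.86, and Mdh1, cytosolic malate dehydrogenase, at -0.56, -0.82, -0.73 and -0.97. Nedd8, a ubiquitin-like modifier of cullins, was at -0.92, -0.99, -0.66 and -0.76. Skp1, an adaptor of cullin 1 ligases, had a mean of -0.76 ± 0.12, and Ddb1, an adaptor of cullin 4 ligases, one of -0.78 ± 0.12. Tuba1a, a tubulin, Trib2, a pseudokinase, and Foxq1, a forkhead transcription factor, fell by 0.81, 0.78 and 0.73.

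**Figure D2:**
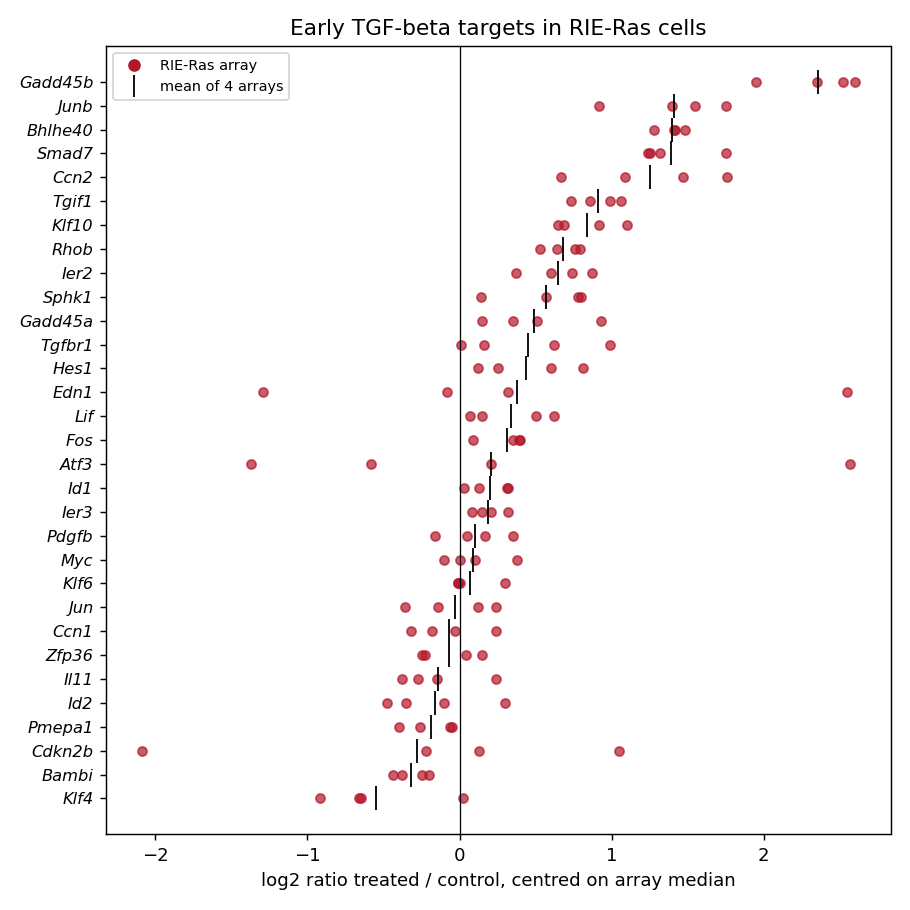
Log2 ratio of treated over control on each RIE-Ras array (points) and mean of the 4 arrays (bars) for the 31 measured early TGF-beta targets, ordered by mean. The first 13 genes lie above 0 on all 4 arrays, while Edn1 and Atf3 spread from below -1 to above 2.5.

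The list of early transcriptional targets of TGF-beta had 31 measured members, 22 with a positive mean, and a median of 0.31 against 0.01 over all features. Of its members 3 rose over all features tested, Gadd45b, Smad7 and Tgif1, and 15 (48.4%) had an unadjusted p under 0.05 on the higher side and none on the lower, beside 10.9% and 8.45% of all features. Members of this and the other lists were chosen with earlier results of these data known, so such shares are descriptions only. The list median was above 0 on every RIE-Ras array, at 0.25, 0.21, 0.24 and 0.31. Bhlhe40, a helix-loop-helix repressor, was at 1.41, 1.28, 1.48 and 1.42 (mean 1.40 ± 0.24, adjusted p = 0.0539). Its 4 arrays were among the closest of the list, and its SE also carries the wider spread of the RIE arrays. Ccn2, a matricellular growth factor, was at 1.47, 1.09, 0.67 and 1.76 (adjusted p = 0.0541), and the AP-1 subunit gene Junb at 1.55, 1.40, 0.92 and 1.75 (adjusted p = 0.117). Replicate 3 was the lowest and replicate 4 the highest for both. Klf10, a zinc finger repressor, was at 0.84 ± 0.26, Rhob, a small GTPase, at 0.68 ± 0.12, Ier2 at 0.65 ± 0.18, Sphk1, a sphingosine kinase, at 0.57 ± 0.13 and Gadd45a at 0.49 ± 0.13, none past the threshold. The endothelin gene Edn1 (-1.29 to 2.55) and Atf3 (-1.37 to 2.57) differed so much between arrays that their means have no clear sign. Myc stood at 0.10, -0.10, 0.00 and 0.38, and the lowest mean of the list was that of Klf4, at -0.55 ± 0.24 (adjusted p = 0.259). Skil was not measured under this name.

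Among 25 measured ligands and binding proteins of the TGF-beta family none passed, and the median was 0.01. Tgfb3 was at 1.27, 0.98, 0.57 and 1.18 (mean 1.00 ± 0.20, adjusted p = 0.0678). Bmp1, a protease that matures collagens and releases ligands, was at 0.62, 0.50, 0.52 and 0.36, averaged from 2 features with unlike means of 0.92 and 0.08. Tgfb1 and Tgfb2 had means of -0.17 ± 0.19 and 0.12 ± 0.12. Bgn, a proteoglycan that binds TGF-beta, was at -0.84 ± 0.21. The 3 ligand genes of TGF-beta thus lay at different ratios, with Tgfb3 the only 1 above 0.5 on all arrays. The 10 measured receptors had a median of 0.28, with 8 positive means. On the higher side 4 of 10 (40.0%) had an unadjusted p under 0.05, beside 10.9% of all features. These were the type I receptor Tgfbr1 (0.62, 0.99, 0.16 and 0.01), Acvr1c (2.40, 0.86, 0.57 and -0.26), Bmpr2 (0.92, 0.66, 0.36 and 0.22) and Acvr2b (0.72, 0.45, 0.38 and 0.05). Replicates 3 and 4 held their 2 lowest values in each case, and none passed. The 4 features of Bmpr2 had means from 0.06 to 0.88. Of 17 measured Smad proteins and partners only Smad7 and Tgif1 passed. Smad6, the inhibitory Smad of BMP signalling, was at 0.33 ± 0.14, and Bambi, a pseudoreceptor, at -0.32 ± 0.16.

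Of 29 measured Ras and ERK outputs 20 had a mean below the array median, and the list median was -0.14. This direction rests on the centring, without which the median was 0.15 and 10 of the 29 means were negative. The falls of Dusp6 and Plk2 held without it, at -0.61 (adjusted p = 0.0138) and -0.64 (adjusted p = 0.0139). Dusp6 and Plk2 fell, and 8 members (27.6%) had an unadjusted p under 0.05 on the lower side, beside 8.45% of all features, against 1 on the higher side. Spry4, a Sprouty inhibitor of the cascade, was at -0.78, -0.95, -0.39 and -0.86 (adjusted p = 0.0595), Dusp5, a nuclear ERK phosphatase, at -0.57, -0.63, -0.41 and -0.45 (adjusted p = 0.0595), and Areg, an EGF receptor ligand, at -1.03, -0.54, -0.35 and -0.94 (adjusted p = 0.0770). All 3 were below 0 on every array and least so on replicate 3. The gene on the higher side was the angiogenic factor Vegfa, at 1.87, 1.06, 0.47 and 1.09. In the cascade itself none of 19 measured genes passed, with Rasa1, a GTPase-activating protein for Ras, at 0.69 ± 0.22 and Map2k1, which encodes MEK1, at -0.39 ± 0.10.

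Genes of the matrix and of mesenchymal cells split, with 13 positive and 14 negative means among 27 measured and a median of -0.03. Thbs1, which can activate latent TGF-beta, rose, at 1.00, 0.80, 0.46 and 1.20 (mean 0.87 ± 0.13), although its 4 features had means from 0.17 to 1.58. Lox, which crosslinks collagen and elastin, rose at 0.89, 0.75, 0.48 and 0.53 (mean 0.66 ± 0.10). Timp3, an inhibitor of metalloproteases, was at 0.72 ± 0.15. On the lower side the intermediate filament gene Vim was at -0.67, -1.57, -0.74 and -2.38, S100a4 at -0.57, -1.73, -1.19 and -1.12, and S100a6 at -3.10, -4.09, -3.32 and -0.15, none past the threshold (adjusted p = 0.0611, 0.0618 and 0.0711). S100a6 had the lowest ratios given here on 3 arrays and was near 0 on the fourth. None of 35 measured NF-kappaB and inflammatory genes passed, and 24 had negative means. On the lower side 8 (22.9%) had an unadjusted p under 0.05 and on the higher 2, beside 8.45% and 10.9% of all features. The list median of -0.13 also turned without centring, to 0.16, with 11 of 35 means negative. The members on the lower side included the inhibitor gene Nfkbia at -0.67, -0.61, -0.58 and -0.42, the chemokine gene Cxcl1 at -1.19, -1.41, -0.71 and -0.66, Cx3cl1 at -0.73 ± 0.13 and Cebpd at -0.81 ± 0.16. Cxcl3 lay on the other side, at 0.97 ± 0.20.

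**Figure D3:**
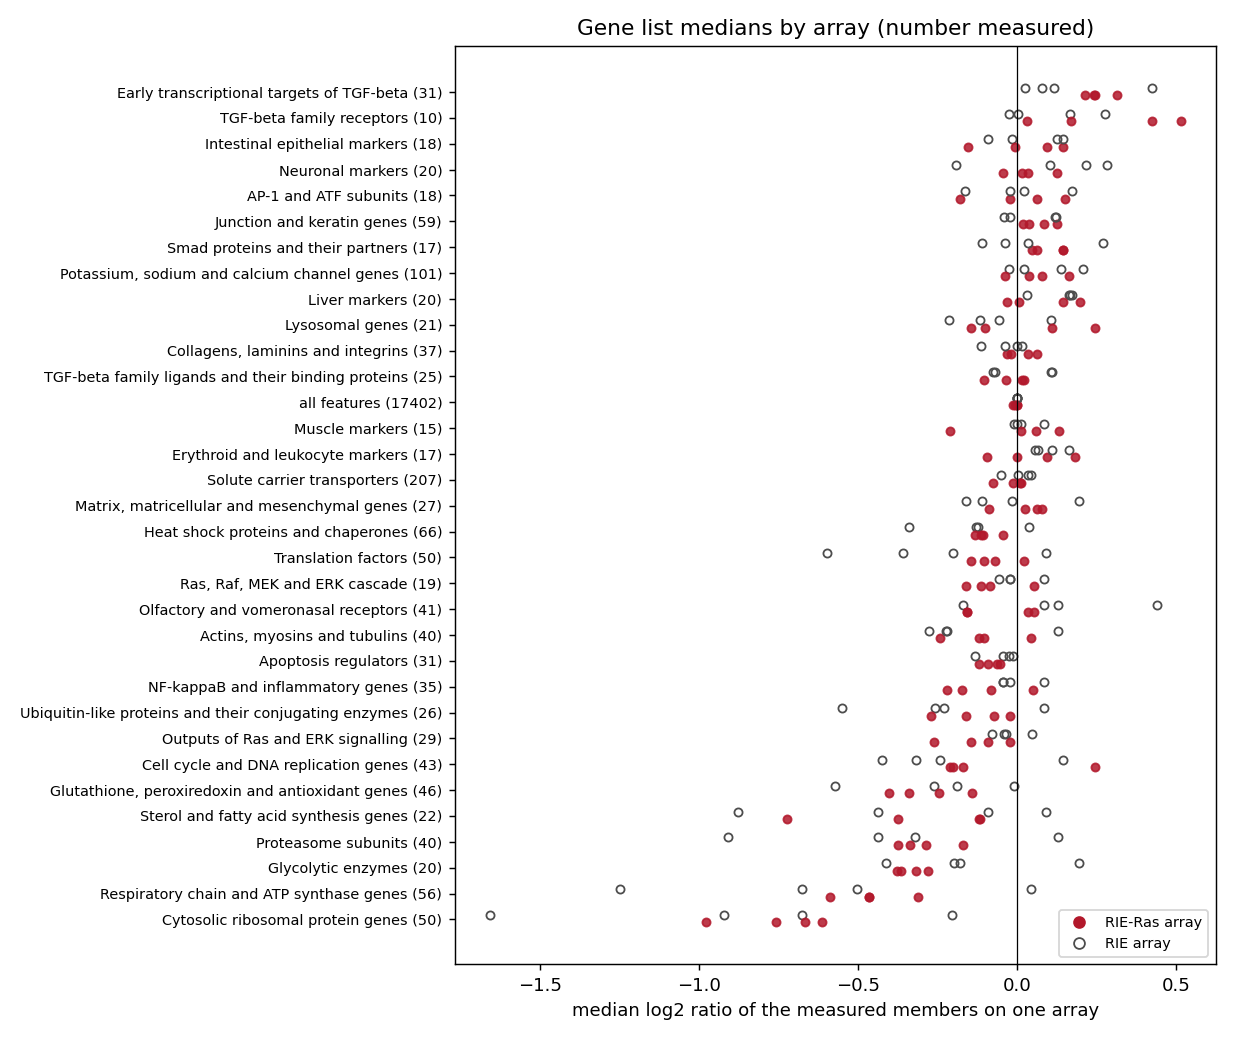
Median log2 ratio of the measured members of each gene list on each array, with the number measured in brackets; filled points are RIE-Ras arrays and open points RIE arrays. The RIE-Ras medians of ribosomal proteins (-0.61 to -0.98) and respiration (-0.31 to -0.59) lie below 0 on all 4 arrays, and those of early targets (0.21 to 0.31) lie above it.

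The lists of abundant housekeeping transcripts lay below the array median. Of 50 cytosolic ribosomal protein genes 47 had negative means and 43 were below 0 on all 4 arrays, as were 14.1% of all features. An unadjusted p under 0.05 on the lower side was held by 40 (80.0%), beside 8.45% of all features. Rpl13a and Rplp0 passed over all features. The list median was -0.79, with -0.61, -0.98, -0.67 and -0.76 on the 4 arrays. Rps21 was at -1.07 ± 0.19 and Rps9 at -0.73 ± 0.13 (adjusted p = 0.0541 for both). In respiratory chain and ATP synthase genes 49 of 56 means were negative, 23 (41.1%) had such a p, Cox6c fell, and the median was -0.42, with Ndufa5, of complex I, at -0.66, -0.74, -0.66 and -0.84 (adjusted p = 0.0508). Glycolytic enzymes had 14 of 20 negative means and a median of -0.27, with Eno1 past the threshold, Aldoa at -0.67, -0.55, -0.62 and -0.45 (adjusted p = 0.0517) and Pgam1 at -0.90 ± 0.16. Proteasome subunits had 34 of 40 negative means and a median of -0.27, with Psmc5 at -0.59 ± 0.11 and none passing. Of 46 glutathione, peroxiredoxin and antioxidant genes 34 were negative and 17 (37.0%) had an unadjusted p under 0.05 on the lower side, with Prdx5 past the threshold, Nqo1 at -0.85 ± 0.15 and the metallothionein gene Mt1 at -0.70 ± 0.14. In parental RIE cells the centred medians of these 5 lists were also below 0, at -0.918, -0.599, -0.188, -0.415 and -0.21. Without centring the RIE-Ras medians of these 5 lists became -0.51, -0.13, 0.02, 0.02 and 0.08, so only the first pair stayed below 0. Of the 19 lists with a median below 0 after centring, the other 17 lay above 0 without it, whereas 20 of the 21 called falls stayed past the threshold as falls.

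Translation factors had a median of -0.05 over 50 genes, with 8 (16.0%) on the lower side at an unadjusted p under 0.05, among them Eif5a at -1.05 ± 0.23 and Eef1b2 at -1.02 ± 0.26. Heat shock proteins and chaperones had a median of -0.04 over 66 genes. Sterol and fatty acid synthesis genes had 16 of 22 negative means and a median of -0.25, or 0.03 without centring, with Fdps at -0.70, -0.78, -0.62 and -0.83 and Acat2 at -0.78 ± 0.19; replicate 4 had the lowest median, -0.72. Cell cycle and DNA replication genes had medians of -0.20, -0.21 and -0.17 on replicates 1 to 3 and 0.25 on replicate 4, and members on both sides, with Pola1, of DNA polymerase alpha, at 0.76 ± 0.13 (adjusted p = 0.0526), Bub1, of the spindle checkpoint, at 0.64 ± 0.15, Birc5 at -0.58 ± 0.12 and Fen1 at -0.55 ± 0.12. None of these members passed. Collagens, laminins and integrins (37 genes), actins, myosins and tubulins (40), apoptosis regulators (31), AP-1 and ATF subunits (18) and ubiquitin-like proteins and their enzymes (26) had medians between -0.13 and 0.08, and of these only Tuba1a and Nedd8 passed. Junction and keratin genes had 38 of 59 positive means and a median of 0.08, with Cdh13 past the threshold. Potassium, sodium and calcium channels (101), lysosomal genes (21), solute carriers (207) and olfactory and vomeronasal receptors (41) had medians between -0.06 and 0.06. Among the solute carriers Slc6a5 rose, the bile acid and fatty acid ligase gene Slc27a5 was at 2.69, 3.07, 2.16 and 0.49 (adjusted p = 0.0642), and the copper transporter gene Slc31a1 at 0.75 ± 0.13 (adjusted p = 0.0530).

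The same treatment of parental RIE cells shows which of these values were also seen in cells without the H-Ras plasmid. In RIE cells 13 features passed (0.0747%), and 4 of the 73 were called there too, Gadd45b and Smad7 higher and Plk2 and Rplp0 lower. In the difference between lines, RIE-Ras minus RIE, no feature passed (0.00%; 1857 features, or 10.7%, at an unadjusted p under 0.05), with 0.112 as the smallest adjusted p, held by features 7475 and 10019, which were at -0.37 and -0.20 in RIE cells. With array weights in the fit 134 features passed, 111 with a positive and 23 with a negative difference. The count thus depends on the weighting of arrays. That fit gave RIE replicate 3 a weight of 8.70 and each other array 0.36 to 1.1, so its RIE means rested mostly on 1 array. The differences below are from the fit without weights, in which none passed. The RIE mean was above 0 for 38 of the 52 rises and below 0 for 17 of the 21 falls. The lines did not overlap in their arrays for 48 of the 73 features, against 7.50% of all features, with 41 rises above and 7 falls below every RIE array. Being called in RIE-Ras cells and this count use the same RIE-Ras arrays, so the counts are a description.

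Gadd45b was at 1.67 ± 0.21 in RIE cells, a difference of 0.69 ± 0.30, and Smad7 at 1.80 ± 0.19, a difference of -0.41 ± 0.27. Dlx2 (0.93 in RIE cells), Exoc5 (0.57) and Thbs1 (0.44) also had positive ratios in both lines, with arrays that overlapped. Neu1 was at 0.03 ± 0.16 in RIE cells, a difference of 1.28 ± 0.22, C1ql1 at -0.26 ± 0.29, a difference of 2.05 ± 0.41, and Lox at -0.03 ± 0.10, a difference of 0.69 ± 0.15 (adjusted p = 0.228 for each). For these 3 all RIE-Ras arrays lay above all RIE arrays. Tgif1 was at 0.34 ± 0.10 in RIE cells, a difference of 0.57 ± 0.14 (adjusted p = 0.246). Among the falls Plk2, Tuba1a and Ddb1 differed between lines by at most 0.05 in size, with SE between 0.16 and 0.18. Eno1 and Hemgn had lower ratios on every RIE-Ras array than on any RIE array. Their differences were -0.61 ± 0.18 and -1.06 ± 0.15 (adjusted p = 0.33 and 0.228 in the limma contrast). Of the 31 early targets, chosen with earlier results of these data known, 9 had an unadjusted p under 0.05 in the contrast, beside 10.7% of all features. All 9 had a positive difference, and their adjusted p ran from 0.246 to 0.462. Among them were Ccn2 (0.82 ± 0.32), Myc (0.70 ± 0.20), Sphk1 (0.61 ± 0.19) and Gadd45a (0.62 ± 0.19). Myc had a mean of 0.09 in RIE-Ras and -0.60 in RIE cells, and Klf6, also among them, means of 0.07 and -0.32. Their differences thus lay in negative RIE ratios rather than in a rise in RIE-Ras cells. The named genes with the smallest p in the contrast were, on the side of a positive difference, Gnao1 (0.87 in RIE-Ras and -0.29 in RIE cells) and Zfp952 (0.83 and -0.36), then the adaptor gene Ap4s1 (0.66 and -0.77), the protease gene Prss23 (0.40 and -0.47) and the chloride transporter gene Clcn7 (0.21 and -0.97). On the side of a negative difference they were Hemgn, then Ica1l (-0.93 and 0.40), the glutathione transferase gene Mgst3 (-0.57 and 0.23) and the homeobox genes Gbx2 (-0.11 and 0.62) and Hoxc5 (-0.51 and 0.51).

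**Figure D4:**
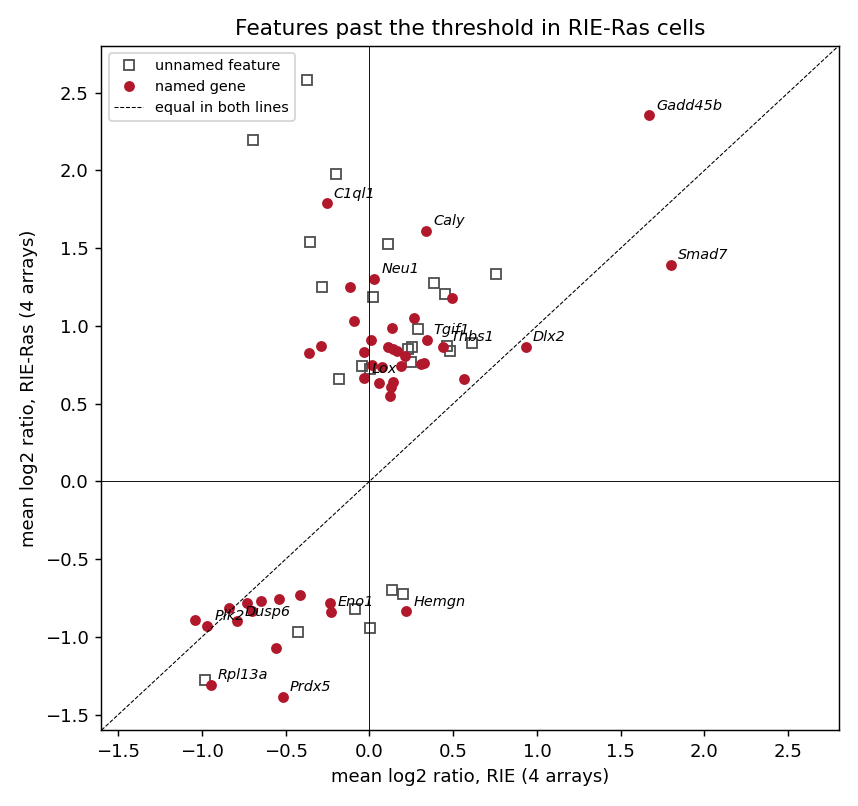
Mean log2 ratio over the 4 RIE arrays (horizontal) and the 4 RIE-Ras arrays (vertical) for the 73 features past the threshold in RIE-Ras cells; circles are named genes, squares unnamed features and the dashed line equal means. Gadd45b and Smad7 stand high in both lines, C1ql1, Caly and Neu1 in RIE-Ras cells, and Plk2 and Dusp6 lie near the dashed line.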

How the data were processed

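RNA of TGF-beta-1 treated and control cells was compared on 8 two-channel arrays, 4 of RIE-Ras and 4 of RIE cells. Per the labels, the authors deposited treated over control fold changes, with the control in channel 1. The deposited numbers behave as log2 ratios: 100% of them, turned into folds of at least 1, fall on steps of 0.01 (tolerance 0.01 of a step). The sources used here give neither dyes, swaps, background correction nor normalization, so a dye effect of a feature cannot be told apart from treatment.

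Names came from the platform annotation (12750 features with one symbol, 5 with several, 7745 with none), updated through RefSeq (GRCr8): 12720 by gene identifier, 7 by accession, 23 kept as given. Arrays were centred on their medians, features of one symbol averaged, and both lines fitted in 1 model with limma 3.58.1 under R 4.3.3 (lmFit, eBayes; 6 residual and 2.71 prior degrees of freedom), adjusting over all 17402 features. Data were also simulated for RIE-Ras cells with 17402 features. Of changes of 0.5, 1, 2 and 3 (log2), 18%, 60%, 96% and 94% were recovered, with 11 false among 145 calls. The simulated noise was normal and independent between features and arrays, with the same SD per feature in both lines. It held no differences between arrays, so these rates need not hold for the real arrays.

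Members and lists were chosen with earlier results of these data known. Called genes put in a list for that reason (10, such as Neu1 and C1ql1) and non-chaperone Hsp symbols were taken out again after the data were seen. No list was tested. Every named feature past the threshold could be named, with the 15 largest rises and falls (1 sign on all arrays) by array, up to 4 members per list by smallest p, the 5 smallest p in each direction of the contrast, and a set of TGF-beta genes; further list members named (Sphk1, Klf4, Areg, Vim and others) were chosen after their values were seen. Alternatives were no centring, equal spread, quantile normalization, single features, RIE-Ras fitted alone, robust eBayes, array weights, a block for the replicate number, a threshold of 0.10, ratios limited to 3, leaving out features at repeated fold values, and leaving out each array.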

Additional observations from a re-analysis of the deposited data

Results flagged for a closer look

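Dixon's criterion was applied to 149 sets of 4 RIE-Ras values, from 113 genes named in the text, 32 list medians and summary measures per array. In 5 sets 1 array stood far off, or 3.36%, where chance gives about 1 in 20. Replicate 1 was that array for Smad7, at 1.75 against 1.24 to 1.32. Replicate 4 was it for Prdx5, at -2.15 against -1.22 to -1.06, for Map2k1, at -0.54 against -0.35 to -0.33, and for the median of the cell cycle and DNA replication list, at 0.245 against -0.21 to -0.169. Replicate 2 was it for Bgn, at -1.24 against -0.75 to -0.66.

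For 12 of the 113 genes named in the text every RIE-Ras array lay on one side of 0 and every RIE array on the other. The difference, RIE-Ras minus RIE, was positive for Slc27a5 (2.79), Ap4s1 (1.43), Zfp952 (1.19), Gnao1 (1.16), Bub1 (1.11), Prss23 (0.87), Acvr2b (0.77) and Gadd45a (0.62). It was negative for Ica1l (-1.33), Hemgn (-1.06), Hoxc5 (-1.02) and Mgst3 (-0.80). In the limma contrast of the lines none of these passed. Over all features tested 308 of 17402 had such opposite signs. Among the 12 genes, Ap4s1, Prss23, Ica1l and Hoxc5 were named only for their small p in this contrast. Gnao1, Zfp952, Hemgn and Mgst3 were named partly for it. The count of 12 therefore cannot be set against that over all features.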

How the results depend on the processing

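The count of 73 changed features stayed within 1.5 times with single features (103), robust eBayes (77), array weights (66) and ratios limited to 3 (78). It was 10 with equal spread per array, 0 after quantile normalization (smallest adjusted p = 0.0693, 3251 features at an unadjusted p under 0.05), 0 with RIE-Ras arrays fitted alone, 146 without features at repeated fold values, 673 at an adjusted p under 0.10, and 3657 without centring, 3591 of them higher. Leaving out single arrays gave 0 to 137. The count of features differing between the lines was 0, and 1 without centring, 1 with ratios limited to 3, 134 with array weights, and 0 to 2 without single arrays. With the replicate number as a block 0 features passed (smallest adjusted p = 0.0813, 2767 at an unadjusted p under 0.05), and 0 in the contrast. Same-numbered arrays of the lines did not deviate together (correlations of -0.05 to 0.05). An effect shared by treated and control cells cancels in each ratio, so these correlations cannot tell whether the numbers pair the arrays. Among 113 named genes direction changed for Atf3 (-0.04 after quantile normalization, and -0.58 to 0.73 without single arrays), Edn1 (-0.35 to 0.93), Myc (0 to 0.16, the lowest being -0.0014 before rounding), and, without centring, Tgfb1 (0.11) and Gbx2 (0.18). In all, 511 values of single genes lost the threshold, 79 gained it and 1313 stayed on their side. The 1313 include values of genes that were not called and stayed uncalled. Gadd45b was called under 13 of 18 alternatives and Caly under 10, while every other named call held under 5 to 9. The cause of changes between settings was not tested.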
